A study of Homo sapiens with 4 samples.

Results

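The HOX clusters are 4 runs of homeobox genes, and the STARR-seq peaks described here are those whose summit lay between the first and the last protein-coding HOX gene of a cluster, with 10 kb added on either side. Gene positions came from RefSeq on GRCh38.p14, which shares its primary coordinates with the hg38 build of the peak lists. This rule took 105 of the 260678 peaks that the 4 lists held on chromosomes 1 to 22 and X, of which 9 were in the DMSO list, 76 in the SHP1705 list, 12 in the MG132 list and 8 in the combination list. The clusters hold 39 HOX genes, and 38 of them are described singly.

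The cells were MDA-MB-231, an established line of breast cancer cells of triple-negative, mesenchymal type. They carried a plasmid library made of sheared genomic DNA of the same line, and an active fragment in such a library is copied into its own reporter transcript. Drug or vehicle was in the medium when the library was transfected, and RNA was taken after 8 h from cells in DMSO, in 10 µM SHP1705 (a stabilizer of the clock repressors CRY, per the study's design), in MG132 at 100 nM (which inhibits the proteasome), or in 10 µM SHP1705 with 100 nM MG132. There was 1 library per treatment, so every difference compares libraries, has no replicate check and is given without a p-value.

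HOX genes encode transcription factors that set position along the body axis. In each cluster the genes lie in the order in which they are used from head to tail, and genes of the same number in different clusters are paralogs. Most HOX proteins bind DNA together with PBX, MEIS or PKNOX homeodomain proteins. Polycomb complexes keep the clusters silent in cells that do not use them, and trithorax and MLL proteins keep them active. A STARR-seq peak is read from reporter RNA, or from other RNA that aligns to the same place, and does not measure expression of the gene around it.

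The height of a peak is given as the number of fragments covering its summit per 1000000 fragments of its library. Of the 4 libraries that of SHP1705 was the deepest, with 118324303 fragments against 27289266 to 29717604, and its peaks over the whole genome were lower, with a median height of 0.786 against 5.42 to 8.04 in the other lists. The SHP1705 list also held 8 summits inside CDKN2A and CDKN2B, of which the tallest was 27.8, although this locus is recorded as deleted in MDA-MB-231. The DMSO and combination lists held none there and the MG132 list held 1, of height 0.660. At VIM, the mesenchymal filament gene, the tallest SHP1705 summit was 589, against 6.95 to 9.64 in the other lists. The SHP1705 list is therefore called below by its label only, each statement on it carries this limit, and the part of this signal in the HOX peaks was not tested.

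Promoter sequences of 300 bases, from RefSeq on GRCh38.p14, could be matched for 20 of the 38 genes. Those of HOXB1, HOXD11, HOXD4 and an alternative start of HOXA3 are shown because they were the ones that a peak covered over all 300 bases. Each runs 5′ to 3′ along the gene from 250 bases before the start to 50 after it, and capitals mark matches on either strand to CACGTG (the E-box bound by the clock factors CLOCK and BMAL1, which CRY represses), GGGCGG (the core of a GC box), and TGATTNAT and TGATNNAT (sites of HOX with PBX). The last motif was added after the HOXB1 sequence had been seen, and every TGATTNAT match is also a TGATNNAT match.
HOXB1, chr17:48530962-48531261, minus strand: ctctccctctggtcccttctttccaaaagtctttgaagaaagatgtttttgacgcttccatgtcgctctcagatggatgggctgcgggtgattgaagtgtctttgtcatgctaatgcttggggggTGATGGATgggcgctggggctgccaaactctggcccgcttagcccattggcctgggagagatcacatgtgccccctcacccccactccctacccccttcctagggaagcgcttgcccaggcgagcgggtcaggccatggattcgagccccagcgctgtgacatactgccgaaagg
HOXD11, chr2:176107030-176107329, plus strand: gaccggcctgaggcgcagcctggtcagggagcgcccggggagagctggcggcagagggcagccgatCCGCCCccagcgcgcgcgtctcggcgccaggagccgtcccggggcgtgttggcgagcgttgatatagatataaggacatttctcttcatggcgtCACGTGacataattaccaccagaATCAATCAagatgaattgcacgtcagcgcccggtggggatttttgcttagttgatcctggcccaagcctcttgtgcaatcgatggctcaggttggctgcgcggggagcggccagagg
HOXD4, chr2:176151300-176151599, plus strand: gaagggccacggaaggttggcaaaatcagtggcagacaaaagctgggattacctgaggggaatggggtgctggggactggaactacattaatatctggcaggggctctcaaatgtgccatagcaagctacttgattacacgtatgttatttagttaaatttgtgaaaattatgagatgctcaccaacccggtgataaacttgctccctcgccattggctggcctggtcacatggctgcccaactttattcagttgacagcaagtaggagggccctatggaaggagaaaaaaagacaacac
HOXA3, chr7:27122323-27122622, minus strand: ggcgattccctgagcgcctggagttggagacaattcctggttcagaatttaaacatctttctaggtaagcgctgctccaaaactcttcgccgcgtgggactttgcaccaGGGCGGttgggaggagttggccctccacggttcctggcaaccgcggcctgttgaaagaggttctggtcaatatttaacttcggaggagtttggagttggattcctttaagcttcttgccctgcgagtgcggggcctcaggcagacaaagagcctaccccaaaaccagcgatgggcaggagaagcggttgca

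Of the 27 promoters of these genes in the table, the HOXB1 promoter was the only one with a summit inside it. The peak belonged to the DMSO list, ran from 48530878 to 48531295 on chromosome 17, had a height of 9.72 and a fold of 26.3 over its local background, and its summit lay 76 bases upstream of the start site. No other list held a peak over it. The summit lay 0.5 bp from the centre of this 418 bp peak. All duplicates were kept in the calls, so the number of separate fragments behind the peak cannot be told. The single marked match in the promoter is TGATGGAT. In mouse Hoxb1, sites of this kind are known to bind HOX and PBX proteins together and to let the gene sustain its own expression. Whether the match has a part in this peak was not tested. The HOXD11, HOXD4 and HOXA3 promoters were each covered by a broad SHP1705 peak with its summit elsewhere. The HOXD11 peak was 1936 bp wide with a height of 0.955, and its summit lay 836 bases upstream of the start. The HOXD4 peak was 1297 bp wide with a height of 1.08 and a summit 942 bases upstream, and none of the searched motifs was found in that promoter. The HOXA3 peak was 784 bp wide with a height of 0.854 and a summit 88 bases downstream of the alternative start.

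CACGTG was found in 9 of the 27 promoters of these genes (33.3%), against 7.26% of all 35116 RefSeq promoters of this length. The 9 belonged to HOXA3, HOXA4, HOXA7, HOXA9, HOXD1, HOXD3, HOXD10, HOXD11 and HOXD13. Some of the 27 are alternative starts of 1 gene, and their median GC content was 58.0% against 58.7% of all promoters. GGGCGG was found in 13 of the 27 (48.1%) against 44.95% of all, TGATTNAT in 2 (7.41%) against 2.82%, and TGATNNAT in 3 (11.1%) against 7.40%. TTTATNG, a site of posterior HOX proteins, was found in 7 (25.9%) against 9.73%, TATAAA in 5 (18.5%) against 11.5%, the E-box variant CACGTT in 3 (11.1%) against 5.34%, and the AP-1 site TGACTCA in 0 against 4.95%. A match says only that these letters are present.

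The 4 clusters differed in how many peaks each list placed in them, and the map of summits along the clusters shows this by position. The HOXA window, from 27082993 to 27210091 on chromosome 7, held 1 peak in the DMSO list, 26 in the SHP1705 list, 1 in the MG132 list and 0 in the combination list. The HOXB window, from 48518526 to 48738750 on chromosome 17, held 6, 33, 7 and 6 in the same order. The HOXC window, from 53928831 to 54066030 on chromosome 12, held 1, 4, 1 and 2. The HOXD window, from 176077487 to 176200907 on chromosome 2, held 1, 13, 3 and 0.

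**Figure D1:**
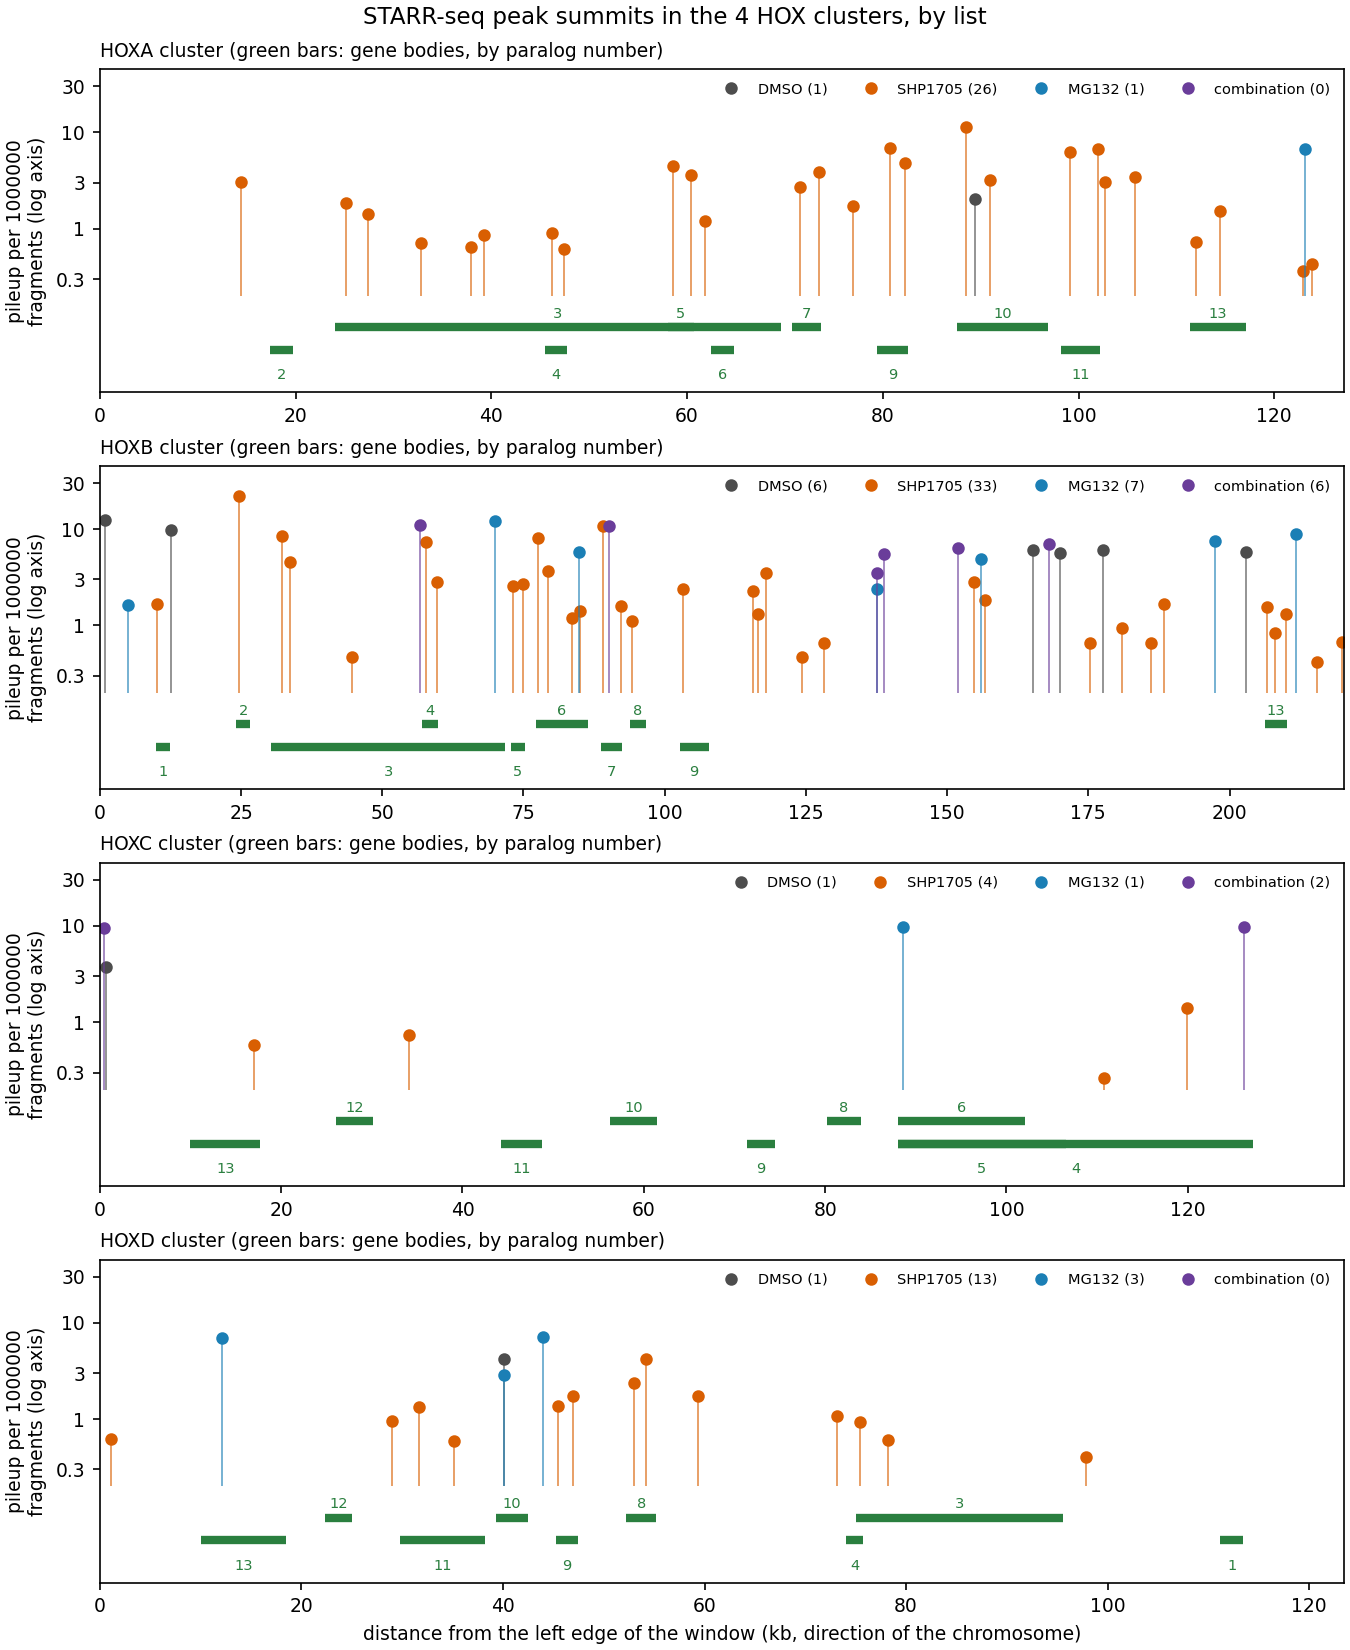
Each panel shows one HOX cluster, with the distance from the left edge of its window in kb on the horizontal axis and the height of each peak summit per 1000000 fragments on a log vertical axis. Points are summits coloured by list, with the number of peaks in the legend, and green bars are gene bodies labelled by paralog number, where some nested genes are drawn over one another. The 26 SHP1705 summits of HOXA run across nearly the whole cluster, while the 4 of HOXC are sparse.

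As a density, the SHP1705 list held 2.05 peaks per 10 kb in HOXA (exact Poisson 95% interval 1.34 to 2.997), 1.498 in HOXB (1.03 to 2.10), 1.05 in HOXD (0.561 to 1.80) and 0.292 in HOXC (0.0794 to 0.746). Over chromosomes 1 to 22 and X the same list held 0.283 per 10 kb. HOXA, HOXB and HOXD therefore stood at 7.22, 5.29 and 3.72 times the density of the list, and HOXC at 1.03 times. The 3 intervals of the dense clusters overlap one another, and that of HOXC overlaps only the one of HOXD. Intervals cover counting error only, since fragments without molecular identifiers are not independent molecules. Of 30288 windows of 100 kb over the genome, 0.512% were at or above the SHP1705 density of HOXA, 1.07% at or above that of HOXB, 2.40% at or above that of HOXD and 42.1% at or above that of HOXC.

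The other lists did not show this density. Over all 4 clusters the ratio to the density of the whole list was 4.41 (3.48 to 5.52) for SHP1705, 0.938 (0.429 to 1.78) for DMSO, 0.856 (0.442 to 1.496) for MG132 and 0.697 (0.301 to 1.37) for the combination. The last 3 intervals include a ratio of 1. With the combination list at 0 peaks in HOXA and 0 in HOXD, the upper Poisson limit was 0.290 per 10 kb in HOXA and 0.299 in HOXD, both above the density of that whole list, 0.189. The empty clusters thus lie within counting error of the density of that list.

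**Figure D2:**
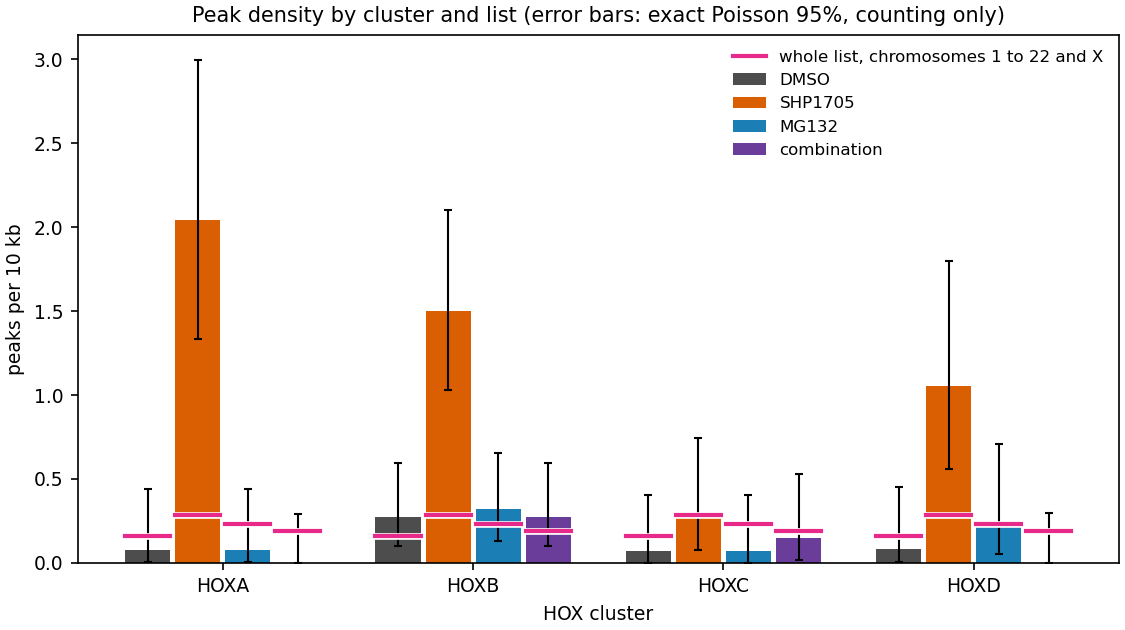
Bars give peaks per 10 kb for each HOX cluster and list, black error bars are exact Poisson 95% intervals that cover counting error only, and pink lines mark the density of the whole list on chromosomes 1 to 22 and X. SHP1705 bars stand above their line in HOXA (2.05), HOXB (1.498) and HOXD (1.05), and near it in HOXC (0.292).

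The SHP1705 density was lower outside the clusters. In the 100 kb on each side of the 4 windows, which make 8 stretches, the SHP1705 list held 18 peaks or 0.225 per 10 kb (0.133 to 0.356), against 1.25 (0.985 to 1.56) inside the HOX windows. The DMSO list held 13 peaks in these sides, the MG132 list 18 and the combination list 19. For comparison with other gene clusters, the histone genes of chromosome 6 held 0.498 SHP1705 peaks per 10 kb (0.409 to 0.601). A cluster of olfactory receptor genes on chromosome 1 held 0.157 (0.0959 to 0.243). These windows are less tightly packed with genes. The histone window had 55 genes and 109 SHP1705 peaks in 2187829 bp, and the olfactory window 43 genes and 20 peaks in 1273649 bp. The HOX windows had 39 genes and 76 peaks in 607945 bp, so the densities are not matched for gene spacing.

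Within the clusters the SHP1705 peaks lay mostly in the HOX genes. Of 76 SHP1705 summits, 51 (67.1%) were inside the body of a HOX gene, against 2 of 9 in the DMSO list, 5 of 12 in the MG132 list and 3 of 8 in the combination list. The list as a whole also lay in genes more than the others did, since 56.5% of all its summits lay in protein-coding bodies and 37.2% of those of DMSO, 39.3% of those of MG132 and 38.1% of those of the combination. Per 10 kb of sequence, HOX gene bodies held 1.92 SHP1705 summits, the rest of the windows 0.732, and protein-coding bodies over the genome 0.385. In HOXB, the stretch from HOXB1 to HOXB9 (97.8 kb) held 17 SHP1705 peaks and the 98.4 kb between HOXB9 and HOXB13 held 11. The counts there were 1 and 4 in the DMSO list, 2 and 3 in the MG132 list and 2 and 4 in the combination list.

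Counted by gene, 25 of the 38 HOX genes held an SHP1705 summit, 2 a DMSO summit, 7 an MG132 summit and 3 a combination summit. Over all 19974 protein-coding genes the shares were 75.9% for SHP1705, 42.1% for DMSO, 51.6% for MG132 and 45.7% for the combination, but most HOX genes are short. Among the 32 HOX genes of at most 10 kb, 21 held a summit in SHP1705, where 47.8% of all protein-coding genes of that length did. The same counts were 2 of 32 in DMSO against a background of 13.3%, 3 of 32 in MG132 against 17.2% and 1 of 32 in the combination against 14.1%. HOX genes thus stood above the background in the SHP1705 list, as a description without a test. In the other 3 lists the shares were lower than the background. They rest on 2, 3 and 1 genes and no interval was computed, so no difference is read from them.

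The genes with an SHP1705 summit were 8 of 10 in HOXA, 10 of 10 in HOXB, 2 of 9 in HOXC and 5 of 9 in HOXD. By paralog group, every described member of groups 3, 4 and 7 held one, and neither HOXC12 nor HOXD12 did. The grid of genes by paralog group gives the tallest summit of each gene. Where gene bodies are nested or overlap, a summit was assigned to the shortest gene around it. The 9 genes with no summit in any list were HOXA2, HOXA6, HOXC8, HOXC9, HOXC10, HOXC11, HOXC12, HOXD1 and HOXD12. Over all protein-coding genes, 14.6% had none. That share covers genes of every length, whereas all 9 of these HOX genes are at most 10 kb long. Of the 9, 5 form an unbroken run in the HOXC cluster.

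**Figure D3:**
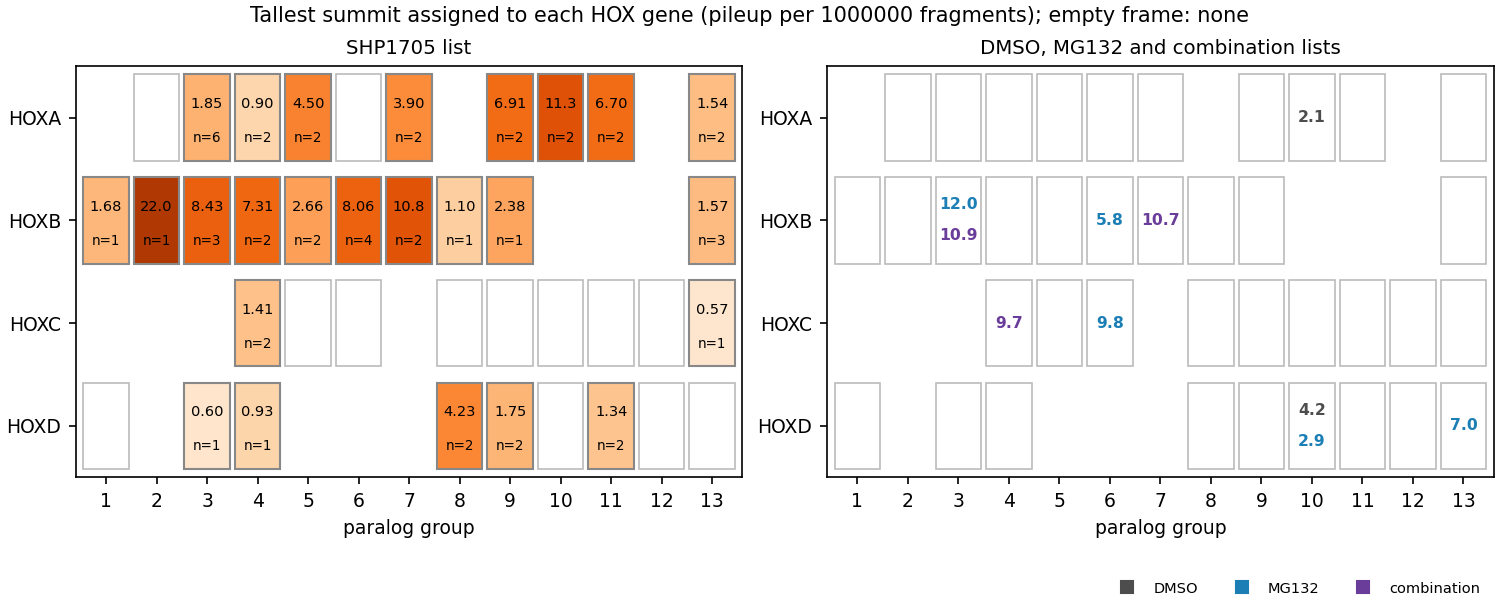
Rows are the HOX clusters and columns the paralog groups, and each frame is a described gene. The left panel gives the tallest SHP1705 summit per 1000000 fragments and the number of SHP1705 summits (n), and the right panel gives the tallest summit in the DMSO, MG132 and combination lists in the colour of the list. HOXB2 is the tallest in the left panel at 21.97, and the right panel is filled at 8 of the 38 genes.

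The anterior genes, of low paralog number and used in the hindbrain and neck region, included the tallest HOX peak of the series. HOXB2, a hindbrain segment gene, held 1 SHP1705 summit of height 21.97 (2600 fragments, fold 12.5) and none in the DMSO, MG132 and combination lists. Among all protein-coding genes with an SHP1705 summit, which are of every length, this height stood at percentile 88.5, and the median was 3.90. HOXB1, the hindbrain gene whose promoter is shown above, held 1 SHP1705 summit of height 1.68 at the 3′ end of the gene, 14.2-fold over its background, while its DMSO summit of 9.72 lay in the promoter. HOXA2 held none in any list.

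HOXB3 was one of 2 HOX genes with a summit in 3 lists, as 17.8% of all protein-coding genes had. Its body is long (41372 bp) and overlaps HOXB4, and its own tallest summits were 11.98 in MG132, 10.9 in the combination and 8.43 in SHP1705, with none in DMSO. These were 3 separate places in the gene, at 48588530, 48575172 and 48550847 on chromosome 17. HOXB4, a gene known for its use in expanding blood stem cells, held 2 SHP1705 summits of 7.31 and 2.85 and none in the other lists. HOXA3, which acts in the pharyngeal arches, had the most SHP1705 summits of any HOX gene. There were 10 in its 45574 bp body, of which 4 were assigned to HOXA4 and HOXA5 inside it, and the tallest of the other 6 was 1.85. HOXA4 reached 0.896, HOXD3 0.600 and HOXD4 0.930 in SHP1705, and none of the 4 genes HOXA3, HOXA4, HOXD3 and HOXD4 had a summit in the other lists.

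HOXC4 was the other gene with summits in 3 lists. Its body of 39143 bp contains those of HOXC5 and HOXC6, and it held 2 SHP1705 summits of 1.41 and 0.262. The combination summit in HOXC4 had a height of 9.74. A single MG132 summit of 9.78 at 54017367 on chromosome 12 lay in HOXC4, HOXC5 and HOXC6 at the same time and accounts for 3 of the 7 genes counted for MG132. No DMSO summit lay in HOXC4. The only other HOXC gene with a summit was HOXC13, a gene of hair and nail, with 1 SHP1705 summit of 0.575.

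The central genes are used along the trunk. HOXB7 had summits of 10.8 and 1.58 in SHP1705 and one of 10.7 in the combination, and none in DMSO or MG132. The 10.8 and 10.7 summits did not coincide, as they lay at 48607693 and 48608594. HOXB6 had 4 SHP1705 summits, from 1.20 to 8.06, and an MG132 summit of 5.79. HOXB5 reached 2.66, HOXB8 1.10 and HOXB9 2.38 in SHP1705 only. HOXA5, a gene needed for lung development, had SHP1705 summits of 4.50 and 3.61, and HOXA7 had 3.90 and 2.70. HOXD8 had the tallest SHP1705 summit of its cluster at 4.23, with a further one of 2.37. HOXA6 was empty.

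Among the posterior genes, which pattern the limbs and the urogenital tract, HOXA9, HOXA10 and HOXA11 had the tallest SHP1705 summits. These stood at percentiles 65.4, 77.3 and 64.4 of all protein-coding genes with an SHP1705 summit, a set not matched for gene length. HOXA10, a gene of the uterus, held SHP1705 summits of 11.3 and 3.17 and a DMSO summit of 2.05, and the DMSO peak did not overlap either of them. The 11.3 summit lay also in the antisense gene HOXA10-AS. HOXA9, a gene of blood progenitors and leukaemia, held 6.91 and 4.79, and HOXA11 held 6.70 and 6.29. Both had no summit in the other lists. HOXA13 reached 1.54, HOXB13 (a prostate gene) 1.57, HOXD9 1.75 and HOXD11 1.34 in SHP1705 only. HOXD10 and HOXD13 went the other way and had no SHP1705 summit. HOXD10 held 4.21 in DMSO and 2.89 in MG132, and HOXD13, a digit gene, held 6.96 in MG132.

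In many HOX genes the SHP1705 summits lay on both sides of the midpoint of the gene. Of the 21 HOX genes of at most 10 kb with an SHP1705 summit, 14 held one in both the 5′ and the 3′ portion, where 30.5% of the 2130 protein-coding genes of that length with a summit and a known strand did. The other 7 (33.3%) held one in the 3′ portion only and 0 in the 5′ portion only, where 49.3% and 20.2% of all such genes did. HOXA10 and HOXB2 were among those 7. In 9 of the 14 genes (64.3%) the 3′ summit was the taller, which is near the 69.2% of all genes with both. The ratio of the 3′ to the 5′ height had a median of 1.26 and ran from 0.443 in HOXD11 to 6.85 in HOXB7, and its median over all such genes was 1.52. HOXB6 stood at 5.71 and HOXB4 at 2.57, whereas HOXA11 (0.938) and HOXB5 (0.962) were nearly even.

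**Figure D4:**
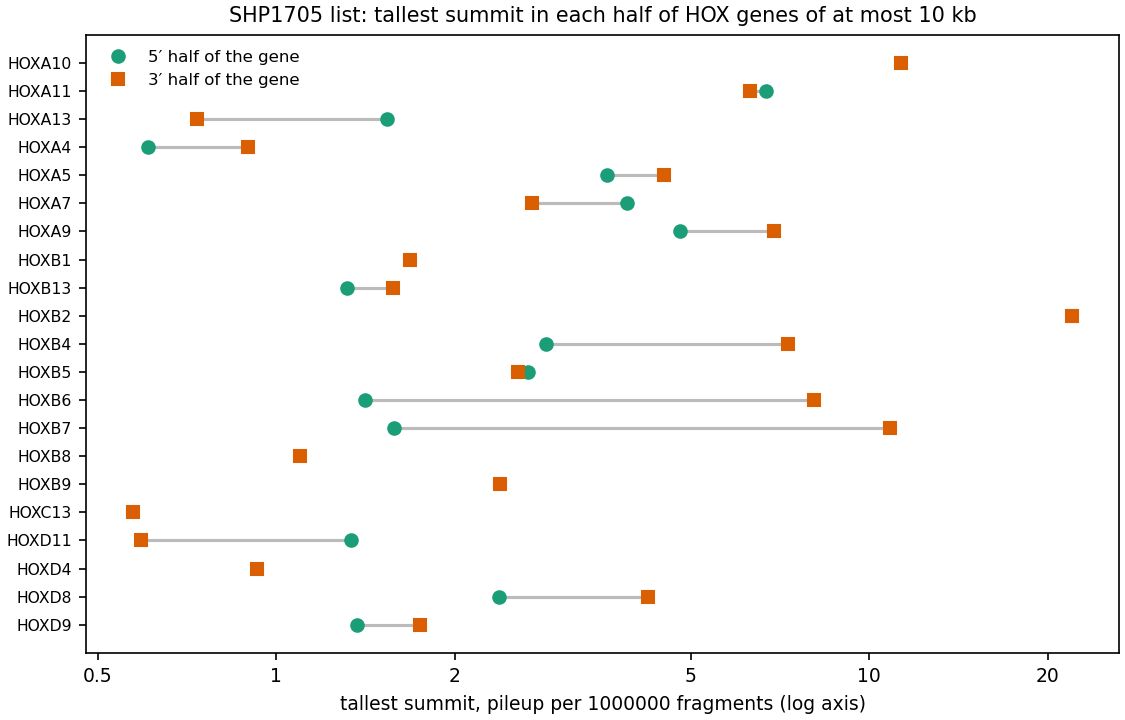
The tallest SHP1705 summit in the 5′ portion (circles) and the 3′ portion (squares) of each HOX gene of at most 10 kb that held one, as height per 1000000 fragments on a log axis, joined where a gene has both. Of the 21 genes, 14 have both and the other 7 only the 3′ one, and the widest gap is that of HOXB7 (1.58 and 10.8).

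The HOX peaks of the SHP1705 list were broad. They stood little above their surroundings, as the whole list did, with a median fold over the local background of 4.71 against 5.03. Their median width was 644 bp (331 to 3929), and 34 of 76 were at least 700 bp wide, against 23.2% of all SHP1705 peaks. The 29 HOX peaks of the other 3 lists were 351 to 638 bp wide. A fold of at least 20 over the local background was reached by 0 of 76 HOX peaks in SHP1705, 2 of 9 in DMSO, 6 of 12 in MG132 and 6 of 8 in the combination, where the shares of the whole lists were 4.43%, 55.0%, 45.5% and 52.5%. That background is averaged over 10000 bp, so neighbouring peaks raise it. The fold is the authors' own value and describes peaks within their list, apart from the ratios by the authors' fold that are given as an alternative for shared regions.

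In height the SHP1705 peaks of the HOX clusters stood above the median of their own list and below the HOX peaks of the other lists. Counted by gene, the tallest assigned summits of the 25 HOX genes with one had a median of 2.38, against 3.90 for all protein-coding genes with an SHP1705 summit. The measures differ, since a nested summit went to the shortest HOX gene, whereas any summit in a gene counted for the 3.90. Genes of every length also enter the 3.90, and long genes can hold more summits, so no rank is read from it. The median height of HOX peaks was 1.56 in SHP1705, which is 1.98 times the median of that list (1.52 to 2.88). It was 5.79 in DMSO (0.720 times, 0.469 to 1.21), 6.85 in MG132 (1.26 times, 0.534 to 1.64) and 8.15 in the combination (1.16 times, 0.503 to 1.56). These are exact intervals of the median that treat peaks as independent. Of the 76 SHP1705 peaks, 71 were at least as tall as the lowest peak of the DMSO list over the genome (0.437), and 0 of these 71 overlapped a DMSO peak, where 11.99% of all SHP1705 peaks of such height did. Against the MG132 list (lowest 0.440), 2 of 71 overlapped, where 13.9% of all did, and against the combination list (lowest 0.424), 0 of 72, where 12.1% of all did. The HOX windows held only 9 DMSO, 12 MG132 and 8 combination peaks beside these 76, so few overlaps were possible. No avoidance of the other lists is read from these counts. The smallest peak width that could be called was 299 bp in SHP1705 and 346 to 355 bp in the others.

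**Figure D5:**
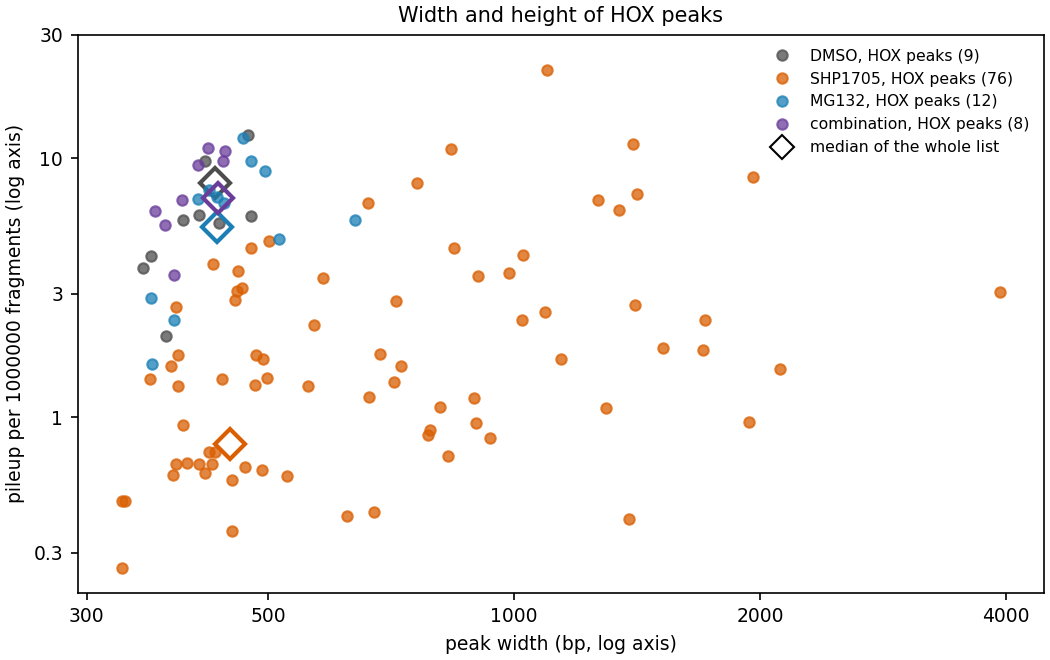
Each point is a HOX peak, with its width in bp and its height per 1000000 fragments on log axes and its colour giving the list, and open diamonds mark the median width and height of each whole list. SHP1705 points spread from 331 to 3929 bp, while the 29 points of the other lists lie between 351 and 638 bp.

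Few HOX regions were held by more than 1 list. Peaks that share at least 1 bp merged into 98 HOX regions, of which 92 were in 1 list, 6 in 2 lists and 0 in 3 or 4, where 10.5% of all 223513 merged regions were in 2 or more. The 6 regions contained 4 of the 76 SHP1705 peaks (5.26%, against 18.5% over that list), 5 of 12 MG132 peaks (41.7%, against 23.2%), 2 of 9 DMSO peaks (22.2%, against 29.1%) and 2 of 8 combination peaks (25%, against 25.5%). These shares depend on how few peaks the other lists held beside the 76 of SHP1705, so no avoidance is read from them. Of the 29 peaks in the DMSO, MG132 and combination lists, 26 were in no region with SHP1705, which was also the case for 84% of all peaks of these lists.

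A shared region in HOXD10, at 176117386 to 176117744 on chromosome 2, had the same ends in DMSO and MG132. Its height was 4.21 in DMSO (125 fragments) and 2.89 in MG132 (79 fragments), a ratio of 0.688 (exact 95% counting interval 0.513 to 0.919). Past 1.5-fold, which this ratio is not, lay 48.4% of all regions in both lists. A shared region 9366 bp from HOXC13 rested on a 41 bp overlap, with a height of 9.39 in the combination and 3.77 in DMSO, and its ratio of 2.49 (1.99 to 3.14) is set against 47% of shared regions past 1.5-fold. Inside LINC02086, a long non-coding RNA gene between HOXB9 and HOXB13, a region with identical ends stood at 3.53 in the combination and 2.38 in MG132, a ratio of 1.48 (1.07 to 2.06), where 48.5% were past 1.5-fold. These 3 intervals treat fragments as independent. All duplicates were kept, so the number of separate fragments cannot be told and the intervals may be too narrow. Over the genome, 644 peaks had identical ends in DMSO and MG132 (1.35% of DMSO peaks), beside 8873 regions in both lists. The combination shared 853 such peaks with MG132 (1.22% of MG132 peaks), beside 9333 regions in both. By the authors' fold these ratios were 0.432 in HOXD10, 1.10 near HOXC13 and 0.691 in LINC02086, so the last turned its direction and the one near HOXC13 no longer passed 1.5-fold.

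The other 3 shared regions paired MG132 with SHP1705. The one in HOXB6 and its antisense gene HOXB-AS3 stood at 5.79 in MG132 and 1.41 in SHP1705. The one in HOTTIP, a long non-coding RNA at the end of HOXA that recruits MLL complexes, stood at 6.74 in MG132, and the 2 SHP1705 peaks that touch it reached 0.363 and 0.431. A further one in LINC02086 stood at 4.87 and 1.82. As SHP1705 over MG132 the ratios were 0.244 in HOXB6, 0.0639 in HOTTIP and 0.373 in LINC02086. Over all 9978 regions in both lists the median of this ratio was 0.148, and 96.2% were past 1.5-fold.

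Most summits in the non-coding genes of the clusters also came from the SHP1705 list. HOTAIRM1, a myeloid RNA next to HOXA2, held the widest HOX peak of the series (3929 bp, height 3.04), in SHP1705 only. The tallest was that of HOXA10-AS, 1 SHP1705 summit of 11.3 that lay also in HOXA10. HOXB-AS1 held 1 of 8.43 that lay also in HOXB3, and HOXB-AS3 6 of up to 8.06 that lay also in HOXB5 or HOXB6. HOXA-AS3 held 4 SHP1705 summits of up to 4.50, HOXA11-AS 2 of up to 3.45 and HOXB-AS4 1 of 2.26. HOXD-AS2 held 1 of 1.73, HOXA-AS2 1 of 0.854, HOTAIR 1 of 0.735 and HAGLR 1 of 0.406. Strand cannot be told from these peaks, so a summit in a HOX gene and its antisense gene belongs to both. The microRNA genes MIR10A, MIR10B, MIR196A1, MIR196A2, MIR196B and MIR615, which lie in the clusters, held no summit in any list, and neither did HOXC-AS1, HOXC-AS2, HOXC-AS3, HAGLROS or PRAC1. The microRNA genes are 70 to 110 bp long, so a summit inside one would be rare and nothing is read from their lack. No share over all non-coding genes is set beside these counts, so no excess is read from them either. LINC02086, named after its values were seen, held 3 DMSO, 8 SHP1705, 2 MG132 and 4 combination summits.

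The partners and regulators of HOX genes were counted in the same way. Of 8 TALE cofactors, the lists DMSO, SHP1705, MG132 and combination placed a summit in 4, 8, 7 and 5, and all 4 lists did so in PBX3, PKNOX1 and PKNOX2. Of 15 Polycomb genes the counts were 4, 15, 7 and 7, with PHC2 and JARID2 in all 4 lists, and of 11 trithorax and MLL genes they were 5, 11, 7 and 6, with KMT2A, DOT1L and KDM6A in all 4. Of 8 genes of retinoic acid signalling, which switches on the anterior HOX genes in embryos, 3, 7, 5 and 4 held one. RARA, RARB and RXRA did in all 4 lists and CYP26A1 in none. Of the 6 CDX and ParaHox genes, relatives of HOX that lie outside the clusters, 1, 3, 1 and 1 held one. These genes have median lengths of 7.22 kb for CDX and ParaHox up to 99.1 kb for TALE cofactors, and long genes can hold more summits. The shares of all protein-coding genes given above are not matched for these lengths, so no excess or lack is read from the counts. No HOX gene held a summit in all 4 lists, as 24.8% of protein-coding genes did. That share covers genes of every length, whereas 32 of the 38 HOX genes are at most 10 kb long. The share among genes of that length was not computed.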

How the data were processed

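Poly-A RNA of 4 STARR-seq libraries, 1 per treatment, was sequenced, and each library has 1 peak list. The submitters' processing notes name the hg38 build and the tools MACS2, Bowtie2, FastQC and Trimmomatic. Each list came from 1 run of MACS 2.2.6 on paired-end fragments, per the file headers, with a q limit of 0.01, all duplicates, a local background over 10000 bp and no control. The signal of a peak is the authors' deposited pileup, in fragments and not scaled. The −log10 p-value and −log10 q-value and the fold, a ratio to the local background, are also as deposited by the authors. Because no control library entered the calls, the copy number of the genome and of the plasmid library was not corrected for.

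Pileups were divided by the fragments of the library, from the headers, and multiplied by 1000000. Peaks were assigned to HOX windows by summit. RefSeq gene spans give no exons, and strands came from the RefSeq promoter table. The members and lists were chosen with earlier results of these data known. Genes named are the one at the tallest peak of each cluster and list, those with summits in 3 or more lists, the one with most summits, and fixed lists of neighbours and partners, and the other HOX genes are given with their tallest summit. Of the 39 HOX genes 1, and of the TALE cofactors 1, is not reported here. The counting code was tested on simulated data and recovered 11 of 11 known answers. Python 3.11.15, pandas 2.3.3, NumPy 2.4.6 and SciPy 1.17.1 were used.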

Additional observations from a re-analysis of the deposited data

How the results depend on the processing

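With 1 library per treatment nothing below says how a new library would vary, and depth, treatment and library cannot be told apart. The results were recomputed with no flank, a 50 kb flank, any overlap in place of the summit, equal list lengths (the 47822 peaks of lowest p), a common minimum width of 355 bp, −log10 q of at least 5, 50% overlap, gene bodies with 1 kb added, the authors' fold and median scaling. Of 107 alternative values, 99 stayed within counting error or 1.5 times the reported value. Some of the 99 could not change, since the DMSO list sets the equal length and the combination list sets the common minimum width. Counting error is also wide for the few HOX peaks of the DMSO, MG132 and combination lists. With a 50 kb flank the peak count was 18 in DMSO and 23 in MG132, against 9 and 12, and the SHP1705 density ratio was 3.23. With equal list lengths that ratio was 5.73, and 2 regions were held by 2 or more lists, against 6; fewer peaks entered there by construction. By the authors' fold the shared-region ratios were 0.432 for MG132 over DMSO and 1.10 for the combination over DMSO, and the combination over MG132 turned from 1.48 to 0.691; the cause was not tested. The planned density by reference chromosome lengths was not run, since the largest coordinate seen in the lists served as the length. No paired analysis was possible because each treatment has 1 library and no replicate numbers.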
